A study of Rattus norvegicus with 6 samples.

Results

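The muscle forms of energy enzymes and the muscle oxygen store were followed in dorsal root ganglia of rats given living or boiled tumour cells in the tibia. The 10 genes are Ckm, Eno3, Pygm, Pgam2, Pfkm, Ampd1, Adssl1, Car3, Cox6a2 and Mb, out of 23800 features in the deposited table. They were picked by symbol, each matched 1 feature, and the choice was made with the difference between the groups already known. Their differences between the groups are therefore given as a description, with no test. A lower level in BCP was shared by 9 of the 10 genes, which does not show that these 9 were restricted to muscle. In BCP the mean levels of Pgam2 (10.3 FPKM) and Eno3 (6.31 FPKM) were above that of Ckm (2.13 FPKM). Pfkm lay between 145 and 174 FPKM in every library of both groups and so did not behave as a muscle-restricted gene here.

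The ganglia hold the cell bodies of sensory neurons with their glia, and came from Sprague Dawley rats given cells of the rat breast carcinoma line MRMT-1 in the left tibia. The bone cancer pain group (BCP, replicates 1, 2 and 3) received living cells in 10 µL of medium. The sham group (sBCP, replicates 1, 3 and 4) had the same surgery and the same volume with boiled cells, so it is not an untreated group. Ganglia L3 to L5 of the injected side were collected on day 17, after perfusion with cold saline, and 1 library of polyadenylated RNA was sequenced for each of the 6 samples. The labels give neither sex nor age, and do not say whether a sample is 1 rat or a pool, so the spread between samples may be technical in part. Defining markers of the labelled tissue were present in every library, with a summed level of 7 sensory neuron genes of 9266 to 10220 FPKM in BCP and 8338 to 10798 FPKM in sBCP. Levels are in FPKM, which divides fragments by transcript length and by the library total, so that different genes can be set side by side. BCP replicate 2 stood apart in markers of macrophages, whose summed level over 5 genes was 118 FPKM there, 40.4 and 19.7 FPKM in BCP replicates 1 and 3, and 30.6 to 48.2 FPKM in sBCP. Of these genes, Cd163 did not stand apart, at 0.915 to 1.28 FPKM in BCP and 0.875 to 1.48 FPKM in sBCP.

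Skeletal muscle fibres meet short bursts of demand by rebuilding ATP from phosphocreatine, by breaking down stored glycogen through glycolysis, and by the purine nucleotide cycle, which keeps AMP low. Many steps of these routes have a muscle form encoded by its own gene, beside a form used in brain, nerve or most tissues. Neurons and glia of the ganglion mainly use the non-muscle forms. In muscle, transcription of such genes is known to depend on factors that bind E-boxes (MyoD and its relatives), MEF2 sites and M-CAT sites.

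The windows upstream of the genes are shown because 9 of the 10 genes were low together in the same libraries, while Pfkm was not. RefSeq windows on build GRCr8 ran from 250 bases before to 50 after the gene's start. They were found for 8 of the 10 genes, all but Car3 and Adssl1. The windows of Eno3, Ampd1 and Mb, genes also lower in BCP, are not printed. Capitals mark matches on either strand to the E-box form CAGCTG (its own reverse complement), to M-CAT (CATTCC) and to the MEF2 consensus. E-boxes with other inner letters were not searched or marked, and no marked matches overlapped in these windows. The windows are Ckm (chr1:88189211-88189510, plus strand), Pygm (chr1:213119555-213119854, plus strand), Pgam2 (chr14:84897825-84898124, minus strand), Cox6a2 (chr1:192219667-192219966, minus strand) and Pfkm (chr7:131113849-131114148, plus strand), each read 5′ to 3′ on the gene's strand.
Ckm: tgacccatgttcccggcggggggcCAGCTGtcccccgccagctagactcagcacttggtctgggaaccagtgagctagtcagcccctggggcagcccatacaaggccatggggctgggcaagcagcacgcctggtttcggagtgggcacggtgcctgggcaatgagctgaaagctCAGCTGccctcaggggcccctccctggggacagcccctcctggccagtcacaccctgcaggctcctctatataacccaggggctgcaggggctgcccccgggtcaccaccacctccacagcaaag
Pygm: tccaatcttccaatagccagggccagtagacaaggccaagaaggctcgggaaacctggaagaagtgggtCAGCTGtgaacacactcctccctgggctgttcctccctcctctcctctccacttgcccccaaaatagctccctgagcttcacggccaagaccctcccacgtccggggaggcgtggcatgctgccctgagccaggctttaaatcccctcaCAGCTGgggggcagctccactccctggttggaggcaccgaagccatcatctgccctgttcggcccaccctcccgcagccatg
Pgam2: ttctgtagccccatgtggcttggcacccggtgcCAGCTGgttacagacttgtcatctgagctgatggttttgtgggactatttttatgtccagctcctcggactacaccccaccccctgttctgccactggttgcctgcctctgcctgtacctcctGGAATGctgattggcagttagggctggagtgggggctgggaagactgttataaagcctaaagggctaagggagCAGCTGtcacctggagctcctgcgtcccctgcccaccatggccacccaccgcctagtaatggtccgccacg
Cox6a2: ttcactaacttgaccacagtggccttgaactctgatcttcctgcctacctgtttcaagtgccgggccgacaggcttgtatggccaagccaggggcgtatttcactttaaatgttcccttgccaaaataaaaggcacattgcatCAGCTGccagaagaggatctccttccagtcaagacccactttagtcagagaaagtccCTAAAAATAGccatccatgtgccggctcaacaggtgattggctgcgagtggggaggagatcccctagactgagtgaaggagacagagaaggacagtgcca
Pfkm: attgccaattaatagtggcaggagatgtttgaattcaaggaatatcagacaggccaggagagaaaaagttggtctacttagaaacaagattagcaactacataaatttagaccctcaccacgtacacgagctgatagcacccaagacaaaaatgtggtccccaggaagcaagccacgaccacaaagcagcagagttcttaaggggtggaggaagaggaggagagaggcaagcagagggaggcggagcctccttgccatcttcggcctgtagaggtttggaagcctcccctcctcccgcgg

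CAGCTG was found in 5 of the 8 windows, those of Ckm, Eno3, Pygm, Pgam2 and Cox6a2, and in 15.1% of all 33469 windows of this length. Ckm, Pygm and Pgam2 held it at 2 places each. M-CAT was found in the windows of Eno3 and Pgam2, against 14.2% of all windows, and the MEF2 consensus in those of Cox6a2 and Ampd1, against 3.29% of all. The windows of Pfkm and of Mb, which was lower in BCP, held none of the patterns searched. E-boxes with letters other than CAGCTG were not searched. Among the non-muscle paralogs described further on, 2 of 14 windows (13 genes) held CAGCTG, 3 held M-CAT and 1 held the MEF2 consensus. A match describes the letters of the window and does not show a bound site.

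In the ganglion libraries, 9 of the 10 genes were lower in BCP than in sBCP, with all 3 BCP libraries below all 3 sBCP libraries. The same holds of 3.06% of the 13710 features that reached 1 FPKM in at least 3 libraries, and groups stood apart in either direction for 5.4% of them. All 10 genes passed this filter, but Ampd1, Adssl1 and Cox6a2 reached 1 FPKM in no BCP library and passed through the sBCP libraries alone, and Car3 and Mb did so in 1 BCP library each. Of the 10 genes, 8 were among the features that limma called lower at an adjusted p under 0.05, which were 0.168% of all tested (0.0146% were called higher and 0.182% in either direction). Since this contrast chose the genes, nothing is read from either count. The number of features called lower, 23 with all libraries, was 13 without BCP replicate 3 and 12, 6 and 12 without sBCP replicates 1, 3 and 4. In bulk tissue, fewer cells of a type and less RNA per cell cannot be told apart.

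**Figure D1:**
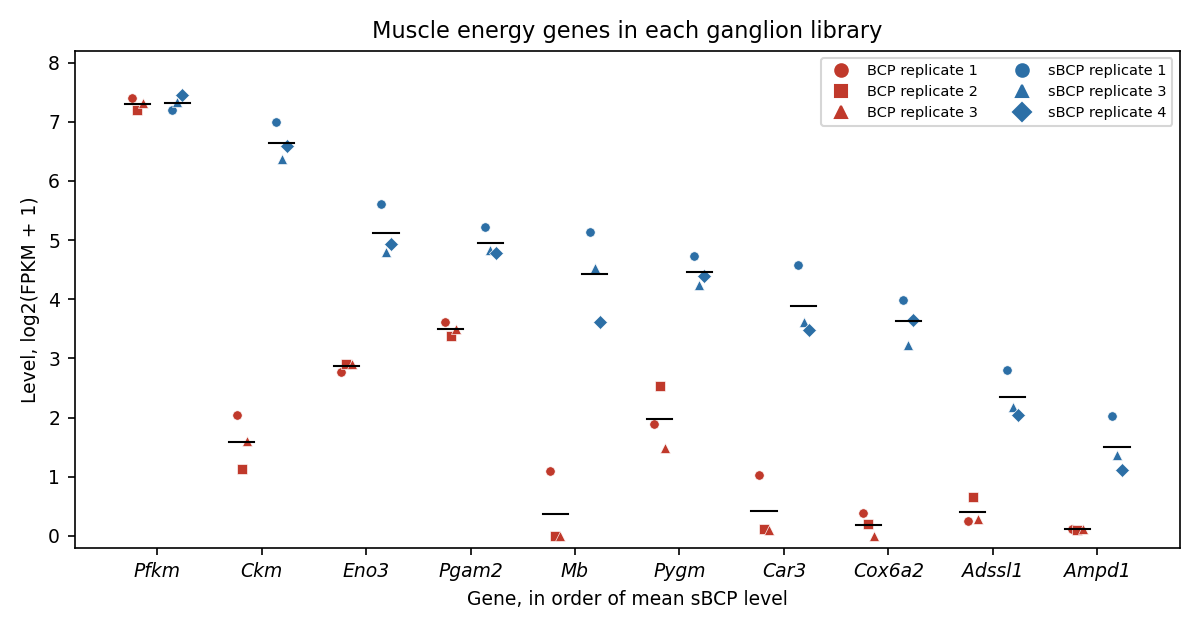
Level of the 10 genes on the log2(FPKM + 1) scale in each library, with BCP in red left of sBCP in blue and a bar at the mean of 3. All genes but Pfkm have their BCP points below their sBCP points, and sBCP replicate 1 (blue circles) is the highest sBCP library for each of these 9.

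Ckm, the muscle creatine kinase that moves phosphate between creatine and ATP, was among the genes with the widest gap between the groups. It lies on chromosome 1 from 80321585 to 80331841, in the coordinates of the deposited table, whose genome build is not given in the sources used here. It was at 3.14, 1.18 and 2.05 FPKM in BCP replicates 1, 2 and 3, and at 127, 81.4 and 94.96 FPKM in sBCP replicates 1, 3 and 4. The lowest sBCP library was 25.9 times the highest BCP library. The means were 2.13 ± 0.983 FPKM in BCP and 101 ± 23.3 FPKM in sBCP (SD, n = 3 each), a 47.6-fold lower mean in BCP. With single libraries left out, the fold ran from 38.9 (without BCP replicate 2) to 62.5 (without BCP replicate 1). A feature on the other strand inside the Ckm gene stayed at or under 0.527 FPKM in every library.

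The glycolytic and glycogenolytic forms kept a measurable level in BCP. Pygm (chromosome 1, 221756286 to 221771143), the muscle glycogen phosphorylase that releases glucose-1-phosphate from glycogen, was at 2.72, 4.78 and 1.81 FPKM in BCP, against 25.7, 17.9 and 19.9 FPKM in sBCP. Eno3 (chromosome 10, 57278307 to 57283653), the beta-enolase of the late glycolytic steps, was at 5.86, 6.53 and 6.53 FPKM in BCP, against 47.7, 26.9 and 29.6 FPKM in sBCP. For both genes the groups stood apart, and the 3 BCP values of Eno3 lay much closer together than its sBCP values. Pgam2 (chromosome 14, 86044969 to 86047162), the muscle phosphoglycerate mutase, was at 11.2, 9.42 and 10.4 FPKM in BCP, against 36.4, 27.5 and 26.4 FPKM in sBCP. The BCP mean was 14.7% of the sBCP mean for Pygm, 18.2% for Eno3 and 34.3% for Pgam2, against 2.103% for Ckm.

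Pfkm (chromosome 7, 139685573 to 139722132), the muscle subunit of phosphofructokinase, which commits sugar to glycolysis and is known to be made in brain as well, did not share this pattern. It was at 167, 146 and 159 FPKM in BCP, against 145, 160 and 174 FPKM in sBCP, with groups that overlapped fully. Its means were 157 ± 10.9 FPKM in BCP and 160 ± 14.4 FPKM in sBCP (SD, n = 3 each), and sBCP replicate 1, the highest sBCP library for the other 9 genes, was the lowest sBCP library for Pfkm.

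The muscle forms in the purine nucleotide cycle were near 0 in BCP and low in sBCP. Adssl1 (chromosome 6, 137184820 to 137206693), the muscle adenylosuccinate synthase, was at 0.195, 0.584 and 0.227 FPKM in BCP, against 5.99, 3.54 and 3.12 FPKM in sBCP. Ampd1 (chromosome 2, 205568935 to 205590021), the muscle AMP deaminase that feeds the cycle, was at 0.0827, 0.0713 and 0.0840 FPKM in BCP, against 3.10, 1.59 and 1.16 FPKM in sBCP. The groups did not overlap for either gene. The BCP mean was 12.6-fold lower for Adssl1 and 24.6-fold lower for Ampd1, both set against BCP levels near 0. Without BCP replicate 2, the highest BCP library for Adssl1, the fold of that gene was 20.002, and without sBCP replicate 1 it was 9.94.

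Car3, Cox6a2 and Mb, which serve carbon dioxide, respiration and oxygen in muscle, were close to absent in most BCP libraries. Car3 (chromosome 2, 88126667 to 88135410), a cytosolic carbonic anhydrase abundant in muscle and in fat, was at 1.04, 0.0876 and 0.0755 FPKM in BCP, against 22.9, 11.2 and 10.2 FPKM in sBCP. Its mean was 36.9-fold lower in BCP with all libraries and 181-fold lower without BCP replicate 1, which held most of the BCP signal. Without BCP replicate 3 it was 26.2-fold lower, the smallest fold with a single library left out. Cox6a2 (chromosome 1, 199624037 to 199624783), the heart and muscle form of a cytochrome c oxidase subunit, was at 0.306 and 0.147 FPKM in BCP replicates 1 and 2, was listed at 0 in BCP replicate 3, and was at 14.9, 8.39 and 11.6 FPKM in sBCP. Mb (chromosome 7, 118101634 to 118108864) encodes myoglobin, the oxygen-binding protein of oxidative fibres. It was at 1.13 FPKM in BCP replicate 1, was listed at 0 in BCP replicates 2 and 3, and was at 34.2, 22.0 and 11.2 FPKM in sBCP. No fold is given for Cox6a2 and Mb, because 19 features listed at 0 in a library were above 20 FPKM in another, so that a listed 0 can be a failed estimate.

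Among the BCP libraries, no single one held the highest level of all 9 genes. Ckm, Pgam2, Car3, Cox6a2 and Mb were highest in BCP replicate 1, Pygm and Adssl1 in replicate 2, and Eno3 and Ampd1 in replicate 3. Replicate 1 was also the highest BCP library in summed markers of fast fibres, pericytes and smooth muscle, erythroid cells and myelinating Schwann cells. It was not the highest for the other marker lists, and the part of these cells in the levels was not tested. BCP replicate 2 was the library high in macrophage markers. Without it the mean was 9.34-fold lower in BCP for Pygm, beside 6.82-fold with all libraries and 5.65-fold without BCP replicate 3. The part of macrophages in the Pygm and Adssl1 levels was not tested.

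Among the sBCP libraries the 9 genes moved together in part. Each was highest in sBCP replicate 1, at 121% (Pgam2) to 159% (Ampd1) of its own sBCP mean. The other libraries changed places, with 4 of the 9 genes lowest in replicate 3 and 5 lowest in replicate 4. Set against Ckm in the same library, Pygm kept a near constant level, at 20.3%, 22.0% and 21.0% of Ckm in sBCP replicates 1, 3 and 4. Cox6a2 was at 11.8%, 10.3% and 12.2% of Ckm, and Pgam2 at 28.7%, 33.8% and 27.8%. Mb kept no such proportion, at 27.0%, 27.0% and 11.8% of Ckm. Ampd1 and Car3 were also low against Ckm in replicate 4, at 1.22% and 10.8%, where replicate 1 gave 2.44% and 18.1%.

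By level in BCP, Pfkm came first, and the mean FPKM of Pgam2 (10.3), Eno3 (6.31) and Pygm (3.10) lay above that of Ckm (2.13), with ranges of Pygm and Ckm that overlapped. The order differed in sBCP. There Pfkm stood above Ckm, and Ckm above Eno3, with ranges over the 3 libraries that did not overlap. Eno3, Pgam2, Mb, Pygm, Car3 and Cox6a2 followed, and each of them overlapped in range with its neighbour in this order. Adssl1 and Ampd1 came last, each below the range of the gene before it.

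Non-muscle paralogs made up most of the summed level of each family in every library but for Mb. Its level was above the sum of Cygb and Ngb in sBCP replicates 1 and 3, in a family that leaves out the haemoglobin genes. No paralog passed the test between the groups. Of 19 paralogs in the table, 17 passed the filter and were tested (all but Car1 and Car7), and limma called 0 of them (adjusted p of 1.00 for each, 0 at an unadjusted p under 0.05). Taken as BCP minus sBCP on the log2(FPKM + 1) scale, their differences lay between -0.38 and 0.20, with 9 above 0, 8 below and a median of 0.0072, beside -0.011 over all 13710 features tested. The groups overlapped for all 17. A test that is not passed does not show that levels were alike, and the 95% intervals below give the differences still possible. Means are given ± SD over 3 libraries a group.

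Ckb, the brain creatine kinase, was at 757 ± 55.4 FPKM in BCP and 689 ± 115 FPKM in sBCP (SD, n = 3 each). Its difference of 0.15 had a limma interval from -0.17 to 0.47 on the log2(FPKM + 1) scale. Ckmt1, the ubiquitous mitochondrial creatine kinase, was at 219 ± 16.5 FPKM in BCP against 211 ± 38.4 FPKM in sBCP, with an interval from -0.27 to 0.40. The muscle form Ckm was 0.126% to 0.297% of the summed Ckm, Ckb and Ckmt1 level in BCP libraries and 8.27% to 14.5% in sBCP libraries. Even where muscle transcripts were highest, most creatine kinase transcript in the sample was thus of the non-muscle genes.

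The glycolytic families were likewise led by their non-muscle genes. Eno1, the widely used enolase, was at 433 ± 29.4 FPKM in BCP and 379 ± 46.6 FPKM in sBCP, with an interval from -0.06 to 0.45 for its log2 difference. Eno2, the neuronal enolase, was at 212 ± 6.07 FPKM in BCP against 192 ± 27.5 FPKM in sBCP, with an interval from -0.11 to 0.42. Eno3 made up 0.933% to 1.02% of the enolase transcripts in BCP and 4.42% to 8.80% in sBCP. Pgam1, the phosphoglycerate mutase of most tissues, was at 398 ± 23.3 FPKM in BCP against 376 ± 42.2 FPKM in sBCP, and Pgam2 was 2.19% to 2.73% of the sum of both in BCP and 5.98% to 9.90% in sBCP. Pfkp, the platelet form of phosphofructokinase that is also common in brain, was at 321 ± 14.0 FPKM in BCP against 294 ± 53.4 FPKM in sBCP, and the liver form Pfkl at 34.1 ± 3.03 FPKM in BCP against 35.5 ± 7.82 FPKM in sBCP. Pfkm held 28.1% to 32.1% of this family in BCP and 30.8% to 35.1% in sBCP, ranges that overlapped.

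For glycogen phosphorylase the brain form Pygb was at 131 ± 12.4 FPKM in BCP and 127 ± 15.4 FPKM in sBCP, and the liver form Pygl at 9.63 ± 0.474 FPKM in BCP against 10.2 ± 0.563 FPKM in sBCP. Pygm was 1.29% to 3.55% of the family in BCP and 11.2% to 17.5% in sBCP, with the highest BCP share in replicate 2. In the purine nucleotide cycle, the AMP deaminases Ampd2 and Ampd3 were at 14.2 ± 0.547 and 7.60 ± 0.485 FPKM in BCP, against 14.6 ± 1.38 and 7.67 ± 0.806 FPKM in sBCP. The non-muscle adenylosuccinate synthase Adss was at 26.8 ± 2.86 FPKM in BCP and 27.8 ± 3.31 FPKM in sBCP. Ampd1 formed 0.316% to 0.397% of its family in BCP and 4.60% to 13.4% in sBCP, and Adssl1 0.761% to 2.12% in BCP and 10.4% to 17.2% in sBCP.

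**Figure D2:**
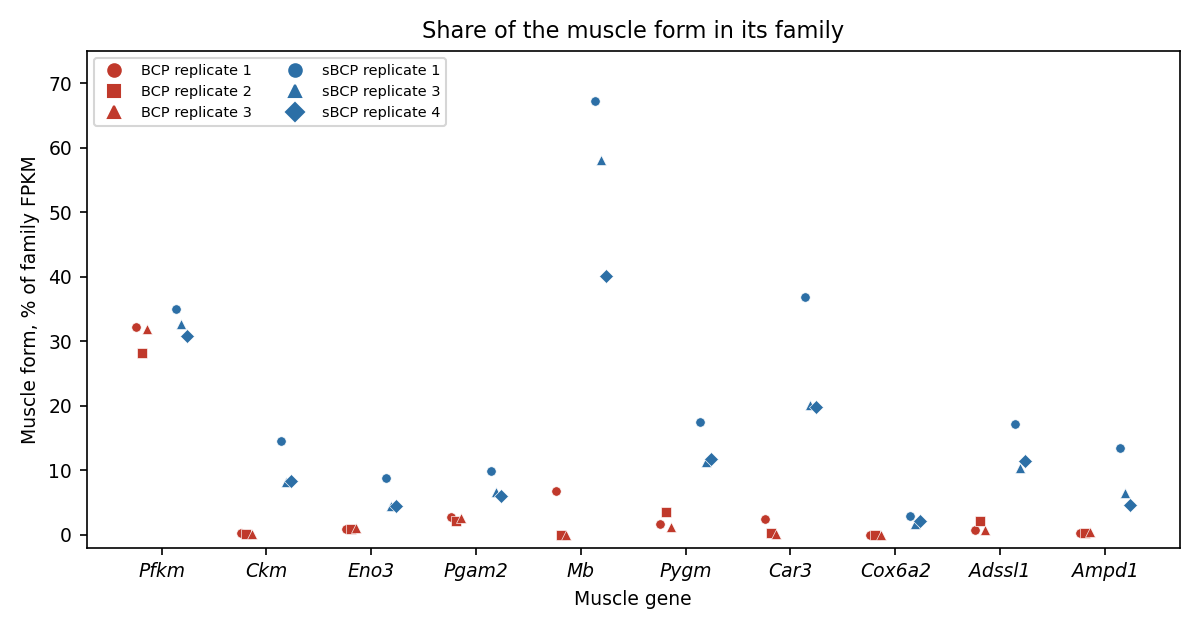
Share of the muscle gene in the summed FPKM of itself and its non-muscle paralogs, in percent, for each library, with BCP in red left of sBCP in blue. The shares of Pfkm overlap between the groups (28.1% to 32.1% in BCP, 30.8% to 35.1% in sBCP), and those of the other 9 genes do not.

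Among Mb, Cygb and Ngb, and among the cytosolic carbonic anhydrases, the muscle gene held a large share in sBCP. Haemoglobin genes were left out, and Hbb alone was at 43.5 to 142 FPKM in BCP and 61.8 to 191 FPKM in sBCP. Mb was 6.73% of the summed level of Mb, Cygb and Ngb in BCP replicate 1, and 40.1% to 67.2% in the sBCP libraries. Cygb, the globin of fibroblasts and other connective cells, was at 13.4 ± 1.92 FPKM in BCP and 13.3 ± 0.295 FPKM in sBCP, and the neuronal globin Ngb at 2.93 ± 0.266 FPKM in BCP against 3.17 ± 0.355 FPKM in sBCP. Car3 was 0.198% to 2.47% of the cytosolic carbonic anhydrases in BCP and 19.8% to 36.8% in sBCP. Car2, the widespread and highly active form, was at 34.4 ± 5.15 FPKM in BCP and 38.2 ± 3.53 FPKM in sBCP, with an interval from -0.45 to 0.14. Car13 had the widest interval of the paralogs, from -0.87 to 0.12, at 2.06 ± 0.431 FPKM in BCP against 3.03 ± 1.01 FPKM in sBCP. Cox6a1, the form of most tissues, was at 531 ± 18.7 FPKM in BCP against 506 ± 28.7 FPKM in sBCP, and Cox6a2 reached 0.058% of the pair at most in BCP and 1.69% to 2.96% in sBCP.

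**Figure D3:**
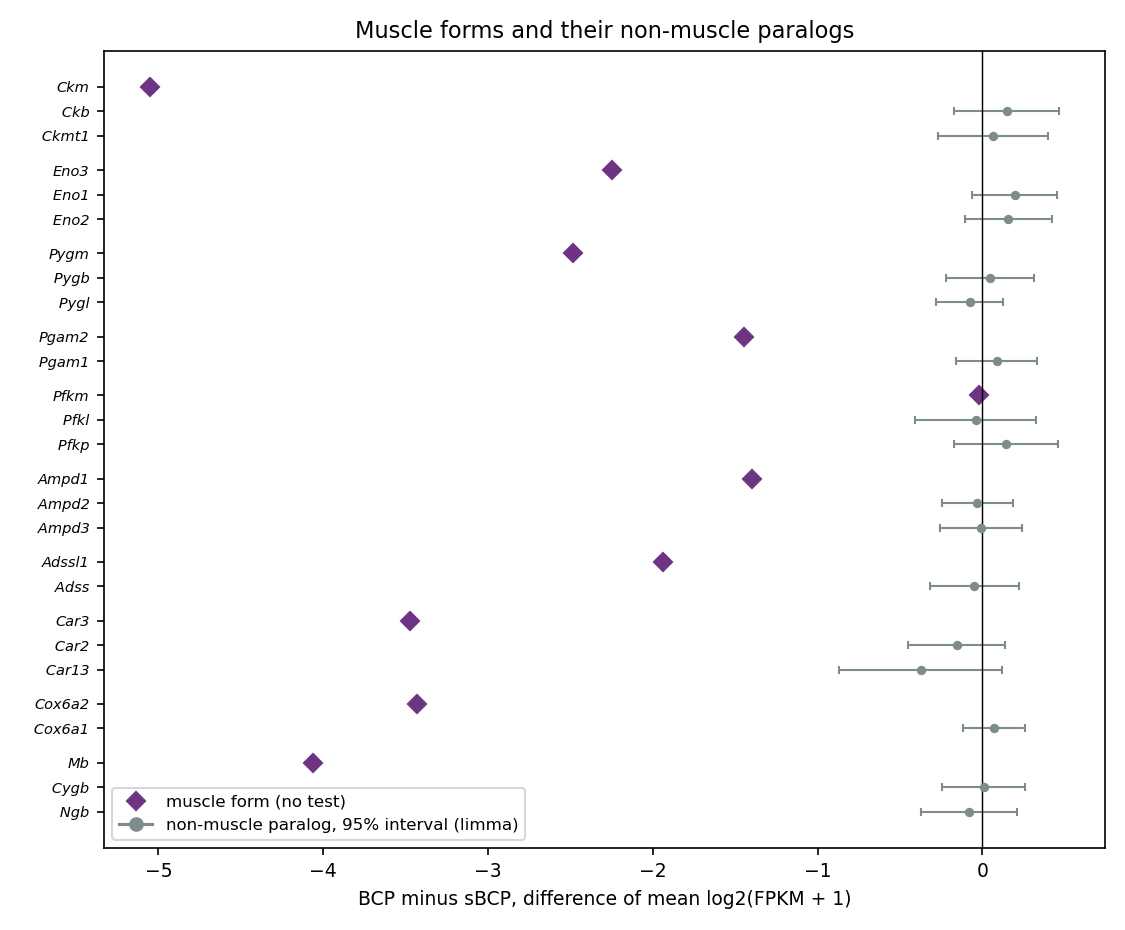
BCP minus sBCP difference of the mean log2(FPKM + 1) for the 10 muscle forms (purple diamonds, no test) and for their 17 tested paralogs (grey points with 95% limma intervals). The paralog intervals all include 0 and reach no lower than -0.87, while the muscle forms other than Pfkm lie between -5.05 and -1.40.

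Genes of the same pathways, listed by function and not by how they moved, did not pass the test. The lists hold the 17 tested paralogs again, so they are not a separate set, and earlier results of these data were known. Over the lists together, 76 genes were tested and limma called 0, with 2 at an unadjusted p under 0.05 and a median difference of -0.0036. The adjusted p was 1.00 for each gene named in this and the next paragraph. In glycolysis 12 of 15 tested genes lay above 0 and 3 below (median 0.06), and the smallest p-values were those of Eno1 and Eno2, given above. In glycogen metabolism 6 of 15 lay above 0 and 9 below (median -0.011). Ppp1r3c, which targets a phosphatase to glycogen, was at 3.504 ± 0.698 FPKM in BCP and 4.06 ± 0.346 FPKM in sBCP. In the creatine and adenylate list 3 of 9 lay above 0 and 6 below (median -0.018). Ckmt2, the sarcomeric mitochondrial creatine kinase, was at 4.17, 3.08 and 3.64 FPKM in BCP, against 5.16, 4.26 and 4.65 FPKM in sBCP. Its groups did not overlap, and its difference was -0.30 with an interval from -0.61 to 0.0071. Gatm, which starts creatine synthesis, was at 19.6 ± 1.23 FPKM in BCP against 23.6 ± 3.63 FPKM in sBCP.

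In the purine nucleotide list 2 of 7 genes lay above 0 and 5 below (median -0.031), led by Adsl, the lyase of the cycle, at 23.6 ± 2.07 FPKM in BCP and 25.3 ± 0.813 FPKM in sBCP, and by Ada, adenosine deaminase, at 7.24 ± 2.58 FPKM in BCP against 6.07 ± 1.19 FPKM in sBCP. Among the carbonic anhydrases 2 of 8 lay above 0 and 6 below (median -0.06), and Car11, a catalytically inactive relative, was at 41.1 ± 1.46 FPKM in BCP against 38.0 ± 1.40 FPKM in sBCP. The groups did not overlap for Car11, with BCP above sBCP (39.8 to 42.7 FPKM against 36.7 to 39.5 FPKM). Among the nuclear cytochrome c oxidase genes 9 of 12 lay above 0 and 3 below (median 0.05). Cox4i2 was at 3.16 ± 0.321 FPKM in BCP and 2.61 ± 0.463 FPKM in sBCP, and Cox5a at 402 ± 26.1 FPKM in BCP against 378 ± 29.3 FPKM in sBCP. Of Cygb and Ngb, the globins listed beside Mb, 1 lay above 0 and 1 below.

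A list of further genes, made for muscle energy supply but also holding genes of other roles such as Art1, had 4 of 13 tested genes above 0 and 9 below (median -0.05). Slc2a4, the insulin-regulated glucose transporter of muscle and fat, was at 1.09, 0.813 and 1.02 FPKM in BCP, against 2.66, 2.02 and 1.61 FPKM in sBCP. The groups did not overlap, the difference was -0.64 with an interval from -1.03 to -0.25, and it did not pass (limma unadjusted p = 0.00619, adjusted p = 1.00). Pdk4, a kinase that holds back pyruvate oxidation, was at 1.28, 1.64 and 1.91 FPKM in BCP, against 3.29, 3.53 and 2.04 FPKM in sBCP (unadjusted p = 0.0183, adjusted p = 1.00). Of the 6 genes of this list below the filter, 4 had all BCP libraries under the sBCP ones (Phkg1, Ppp1r3a, Cox8b and Art1), and the groups overlapped for Nt5c1a and Cox7a1. The share of such groups among all features below the filter was not counted, so nothing is read from this count. Ppp1r3a reached only 0.053 FPKM in its highest library. The genes named here were chosen after their values were seen. Cox7a1, a heart and muscle oxidase subunit, was at 2.14 and 0.806 FPKM in BCP replicates 1 and 2 and at 1.21 FPKM in sBCP replicate 4, and was listed at 0 in the other 3 libraries. Cox8b, another such subunit, was at 0.601, 0.334 and 0.519 FPKM in BCP, against 2.96, 1.21 and 0.982 FPKM in sBCP. Phkg1, the muscle catalytic subunit of phosphorylase kinase, was at 0.0866 to 0.170 FPKM in BCP, against 0.471 to 0.840 FPKM in sBCP, and Art1 was listed at 0 in every BCP library and was at 0.623 to 0.830 FPKM in sBCP. Aldoa, the aldolase that muscle and nerve share, was at 1134 to 1303 FPKM in BCP and 1020 to 1371 FPKM in sBCP.

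Contractile genes of fast skeletal muscle stood beside the energy genes in every library. Of 10 such markers 8 were in the table, and none was listed at 0 in any library. Limma called all 8 lower, beside 0.168% of all features, but 5 of them (Myl1, Myh1, Tnnc2, Tnni2 and Actn3) reached 1 FPKM in no BCP library and entered the test through sBCP alone. When sBCP replicate 1, 3 or 4 was left out, these 5 failed the filter, and the other 3 were tested and called. The list was chosen with earlier results of these data known, so nothing is read from these calls. The summed level of the 8 markers was 12.0 to 18.8 FPKM in BCP and 456 to 836 FPKM in sBCP. It was highest in sBCP replicate 1, as for the 9 energy genes and for marker lists of several other cell types. The list of slow-fibre markers had 7 genes in the table, at 125 to 127.6 FPKM summed in BCP and 127.8 to 135 FPKM in sBCP, sums that lay close together without overlap. Limma called 0 of the 5 tested, with 0 at an unadjusted p under 0.05. Most of that sum came from Atp2a2 and Tpm3, which many tissues use, while Myh7, the slow myosin heavy chain, was at 1.20, 0.810 and 0.709 FPKM in BCP, against 1.04, 1.31 and 1.11 FPKM in sBCP. Tnni1, the slow troponin I, stayed at 0.115 to 0.754 FPKM in BCP and 0.1001 to 0.478 FPKM in sBCP. Whether muscle tissue in the samples accounts for the levels of the 9 energy genes was not tested.

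Fat is another tissue in which Car3 is abundant. The 8 adipocyte markers summed to 1.88 to 5.02 FPKM in BCP and 4.08 to 13.5 FPKM in sBCP, ranges that overlapped, and 7 of the 8 had a lower mean in BCP. Of these markers 4 were listed at 0 in at least 1 BCP library and 3 in at least 1 sBCP library. Fabp4, a fatty acid carrier of adipocytes and capillaries, was at 0.769, 1.01 and 0.350 FPKM in BCP, against 6.38, 2.14 and 2.52 FPKM in sBCP (limma unadjusted p = 0.00493, adjusted p = 1.00), and Adipoq, the adipocyte hormone adiponectin, reached 0.052 FPKM at most in BCP and 0.0757 to 0.524 FPKM in sBCP. Both were highest in sBCP replicate 1, as Car3 was. Among sBCP libraries, so were the summed markers of pericytes and smooth muscle, erythroid cells, myelinating Schwann cells and satellite glia. Those of macrophages, sensory neurons and slow fibres were not. The part of fat in the Car3 levels was not tested. The 6 markers of pericytes and smooth muscle summed to 60.2 to 102 FPKM in BCP and 73.1 to 131 FPKM in sBCP.

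**Figure D4:**
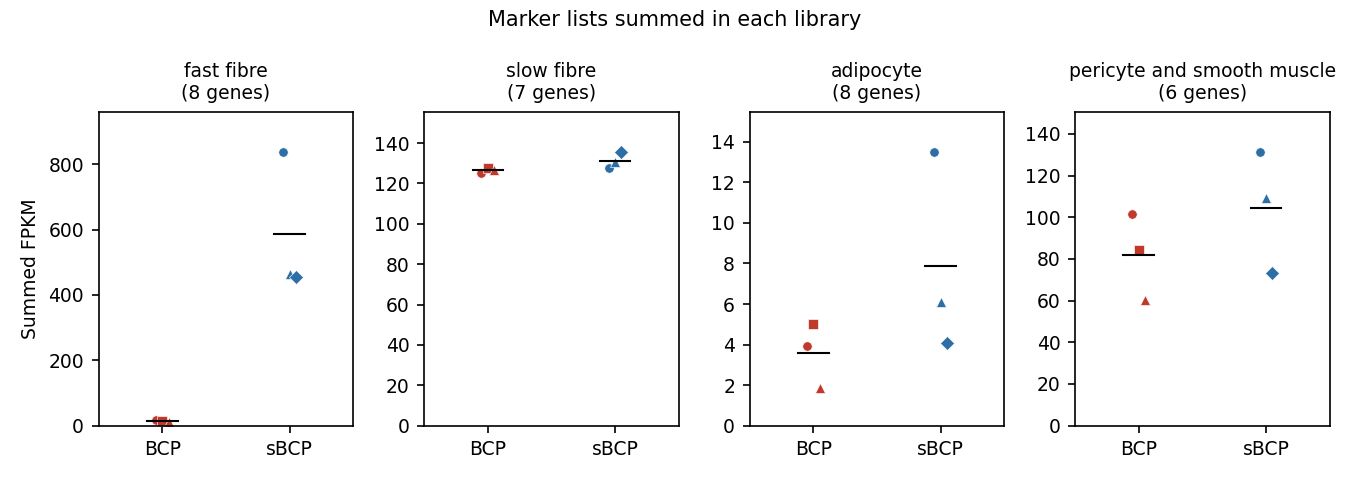
Summed FPKM of marker lists in each library, with BCP in red left of sBCP in blue, a bar at the mean of 3 and an axis from 0 in each panel. Fast-fibre markers separate the groups (12.0 to 18.8 FPKM in BCP, 456 to 836 FPKM in sBCP), slow-fibre sums lie close together without overlap (125 to 127.6 FPKM in BCP, 127.8 to 135 FPKM in sBCP), and the other lists overlap.

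The genes outside the set whose pattern over the 6 libraries was most like its mean were Casq1, Mybpc2, Ankrd23, AABR07052585 and Mybpc1. Likeness was the root mean square difference, over the 6 libraries, between profiles of log2(FPKM + 1) centred on their own mean, among 11982 tested features with a symbol and a mean of at least 2 FPKM. It was 0.11 for Casq1, the calcium store protein of fast fibres, at 1.63, 0.925 and 1.18 FPKM in BCP, against 16.2, 9.68 and 8.73 FPKM in sBCP. It was 0.21 for Mybpc2, the fast myosin-binding protein C, and 0.30 for Ankrd23, a titin-associated ankyrin repeat protein. It was 0.30 for AABR07052585, a symbol for which the sources used here give no gene description, and 0.31 for Mybpc1, the slow myosin-binding protein C. Within the set, the same measure was 0.22 for Eno3 and 0.32 for Pygm, the nearest to the mean, and 1.30 for Pfkm and 1.27 for Ckm, the farthest on either side. The measure weighs the size of the gap, so that Ckm, with the widest gap on this scale, lay far from the mean although its direction was shared.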

How the data were processed

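The samples were 3 BCP and 3 sBCP ganglion libraries, grouped by their titles. The authors deposited FPKM values per feature and library, per the file headers. Per the labels' protocols, 5 µg of total RNA was selected on poly-T beads and sequenced in pairs with an insert near 300 bp. The aligner, the counter, whether it used strand, and the build are not given in the sources used here. Absolute depth is unknown: summed FPKM was 479167 to 495494 per library, and the steps of low values placed the other libraries at 1.11 to 1.31 times the depth of BCP replicate 1. No 2 libraries held identical values.

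The 13710 features that reached 1 FPKM in 3 or more libraries were fitted with limma 3.58.1 in R 4.3.3 on log2(FPKM + 1), with a variance trend, no covariate, two-sided tests and Benjamini-Hochberg adjustment over all of them. Differences on this scale understate the change of low genes. Motifs were searched with Python 3.11.15 and figures drawn with matplotlib 3.10.9.

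The genes and lists were chosen with earlier results of these data known. Named are all 10 genes and their paralogs, per pathway list any gene called and the 2 of smallest p, and the 5 most alike in profile. Of these, 1 pathway gene so chosen is not reported here. Alternatives were a pseudocount of 0.1, no filter, median-ratio rescaling, a block for the replicate number, and the omission of each library in turn.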

Additional observations from a re-analysis of the deposited data

How the results depend on the processing

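Limma called 0 of the 17 paralogs and 0 of the pathway genes under every alternative run. The pathway genes include these paralogs, and 76 were tested, or 75 without BCP replicates 2 or 3 or sBCP replicate 3. The count of all features called lower, 23 in full, was 24 with a pseudocount of 0.1, 21 with no filter and 27 with median-ratio rescaling, and ranged from 6 to 20 when single libraries were left out (13 without BCP replicate 3, 12 without sBCP replicate 1, 6 without sBCP replicate 3 and 12 without sBCP replicate 4). The count called higher, 2 in full, was 1 with no filter and ranged from 0 to 4 when single libraries were left out (0 without BCP replicates 1 and 3, 1 without sBCP replicate 3 and 4 without sBCP replicate 4). With the replicate number as a block, 28 features were called lower and 10 higher. Numbers 1 and 3 are shared by both groups, and the deviations of same-numbered samples correlated at 0.064 and -0.104 across 13710 features. The labels do not say that a shared number pairs samples. With so few samples, these values cannot show whether same-numbered samples shared a batch. Under that block the differences of Pfkl, Ampd2, Ampd3 and Cygb changed sign, to 0.067, 0.0058, 0.017 and -0.10, and that of Pfkm was 0.10. Ampd3 also changed sign with median-ratio rescaling (0.0068). Without single libraries, the difference of Pfkm changed sign (-0.085 to 0.045), as did those of the paralogs Ckmt1 (-0.093 to 0.17), Pygb (-0.055 to 0.12), Pgam1 (-0.0029 to 0.16), Pfkl (-0.19 to 0.12), Ampd2 (-0.11 to 0.010), Ampd3 (-0.068 to 0.063), Adss (-0.14 to 0.030) and Cygb (-0.10 to 0.070), and the cause was not tested. A pseudocount of 0.1 moved the differences of 6 low or wide-gapped genes of the set further from 0, as its construction implies, to -5.58 for Ckm, -3.40 for Ampd1, -3.36 for Adssl1, -5.38 for Car3, -5.73 for Cox6a2 and -6.47 for Mb. Ampd1, Adssl1 and Cox6a2 had no value when an sBCP library was left out, since they then failed the filter. Unknown depth limits the levels near 0 in BCP.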
